A study of Homo sapiens with 16 samples.

Results

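The genes described here are the human WNT ligands, their frizzled receptors and the proteins that modulate both. They were taken by symbol: every WNT, FZD, SFRP and DKK gene, together with LRP5, LRP6, AXIN1, AXIN2, LGR4, LGR5, LGR6, ROR1, ROR2 and WIF1. The rule found 47 of 21453 gene symbols. Of these, 19 were ligands, 10 frizzled receptors, 9 secreted antagonists, 2 axins, 2 LRP coreceptors, 2 ROR receptor kinases and 3 R-spondin receptors of the LGR family. Each symbol was represented by its transcript with the highest mean level.

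The RNA came from T-47D, a breast cancer cell line, and ECC-1, an endometrial cancer cell line. Before treatment both lines grew for 5 days without phenol red, in RPMI-1640 whose serum (10%) had been stripped of steroid hormones with charcoal. Cells then received 10 nM 17β-estradiol, 100 nM bisphenol A, 100 nM genistein or 0.02% DMSO, the vehicle, for 8 hours. Estradiol is the natural estrogen, bisphenol A is an industrial chemical and genistein is a soy isoflavone, and all bind estrogen receptors. There were 16 libraries, 2 in each of 8 groups. The labels do not say that the libraries of a group came from separate cultures, so p-values measure only the spread between these samples. Each tissue is represented by a single established line.

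WNT proteins are secreted lipid-modified ligands that bind frizzled receptors. With LRP5 or LRP6 as coreceptor they keep β-catenin from being degraded by the destruction complex, in which the axins are scaffolds; with ROR1 or ROR2 they can act without β-catenin. DKK1, DKK2 and DKK4 bind LRP5 and LRP6, and SFRP proteins and WIF1 bind the ligands. LGR receptors bind R-spondins and so keep frizzled receptors at the cell surface. In the endometrium and the mammary gland, WNT signals take part in growth and in the response to ovarian hormones.

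Levels are given as RPKM, the number of reads divided by transcript length in kilobases and by library size in M reads, after a scale factor of 0.938 to 1.054 per library. Because RPKM is per length, levels can be compared between genes. A gene was tested where it had at least 1 RPKM in at least 2 libraries. This held for 27 of the 47 genes and for 13827 genes in all. Differences are in log2(scaled RPKM + 0.5), which understates the change of low genes, and were tested with limma over all 16 libraries. A gene was called changed where its p, adjusted by the Benjamini-Hochberg method over the 13827 genes, was under 0.05.

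The 2 first estradiol libraries, 1 in each line, stood apart from the others of their line. Their median correlation with those libraries was 0.9801 in T-47D and 0.9873 in ECC-1, against 0.9893 to 0.9966 for the other libraries. Over all tested genes, the log2 difference between the 2 estradiol libraries had a standard deviation of 0.411 in T-47D and 0.343 in ECC-1. In the other groups it was 0.17 to 0.242. The test shared its estimate of spread per gene over all groups, so estradiol p-values do not rest on the spread of the estradiol pairs alone. For genes whose estradiol pairs spread more than the other groups, this makes the estradiol p-values too small. Estimated depth was 17.41 to 29.39 M reads per library. Breast luminal marker transcripts summed to 859 to 1141 RPKM in T-47D and 5.31 to 7.44 RPKM in ECC-1; endometrial marker transcripts summed to 0.579 to 0.985 RPKM in T-47D and 330.0 to 374.8 RPKM in ECC-1. Each line thus carried the markers of its labelled tissue. Estradiol raised the receptor target GREB1 by 2.30 on the log2 scale in T-47D (adjusted p = 1.57e-05, limma), and it raised the retinal reductase DHRS3 by 3.91 in ECC-1 (adjusted p = 7.1e-06, limma). The DHRS3 rise was the largest of the 13827 tested genes there, so DHRS3 is not an independent check of the response.

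The 250 bases before the transcription start are shown for the 3 genes whose levels under estradiol the results turn on, from RefSeq on GRCh38.p14, 5′ to 3′ on the gene's strand. Capitals mark the core of the estrogen response element, GGTCA, or its reverse complement TGACC.
FZD5, chr2:207769907-207770156, strand −: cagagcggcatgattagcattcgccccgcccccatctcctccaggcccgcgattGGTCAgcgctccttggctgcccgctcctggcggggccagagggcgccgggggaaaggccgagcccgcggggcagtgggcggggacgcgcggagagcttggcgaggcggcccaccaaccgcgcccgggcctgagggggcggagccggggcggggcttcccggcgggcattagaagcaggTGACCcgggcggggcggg
FZD4, chr11:86955396-86955645, strand −: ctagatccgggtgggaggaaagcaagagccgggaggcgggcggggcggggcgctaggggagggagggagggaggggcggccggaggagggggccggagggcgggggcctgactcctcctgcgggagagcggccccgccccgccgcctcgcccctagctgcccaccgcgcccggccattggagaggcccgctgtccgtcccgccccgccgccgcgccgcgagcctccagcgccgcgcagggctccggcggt
WNT5A, chr3:55481399-55481648, strand −: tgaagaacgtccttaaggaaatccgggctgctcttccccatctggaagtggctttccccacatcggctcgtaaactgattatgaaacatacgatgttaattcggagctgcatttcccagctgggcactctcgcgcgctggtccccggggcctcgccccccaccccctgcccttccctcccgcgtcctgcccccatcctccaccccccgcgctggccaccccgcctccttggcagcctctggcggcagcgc
The FZD5 window held 2 cores, 1 in each orientation, and the FZD4 and WNT5A windows held 0. A core stood in 5 of the 32 windows matched to the genes, and in 32.6% of all 35116 promoter windows of this length. The whole palindrome, GGTCA and TGACC with 3 bases between them, searched on both strands, was in 0 of the 32 windows and in 0.0399% of all windows. The GC box GGGCGG, on either strand, was present 6 times in the FZD5 window and 6 times in the FZD4 window; 26 of the 32 windows held it, against 42.6% of all windows. The TCF/LEF motif CTTTGAT, on either strand, was in 0 of the 32 windows and in 2.26% of all windows. A match in letters is a description of the window, not a binding site.

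Under DMSO the lines used different ligands. T-47D transcribed mainly WNT7B, with 14.8 and 21.6 RPKM in T-47D against 2.21 and 2.58 RPKM in ECC-1. ECC-1 transcribed mainly WNT7A, its close relative, which was at 0 and 0.0338 RPKM in T-47D against 83.3 and 92.2 RPKM in ECC-1. Over all 8 libraries of a line, WNT7B made up 58.6 to 67.9% of summed ligand RPKM in T-47D, and WNT7A made up 81.7 to 86.2% in ECC-1. WNT7A was listed at 0 in 7 of the 8 T-47D libraries. Its log2 difference was -7.41, a value set by the pseudocount: it was -9.57 with a pseudocount of 0.1 and -6.45 with 1.

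The line comparison under DMSO called 76.7% of all 13827 genes. Of the 27 tested genes, 13 had passed the level filter in both lines, 10 in ECC-1 alone and 4 in T-47D alone. The filter favoured a difference in genes that passed in 1 line alone, so their levels are given as a description. Of the 13 that passed in both, 6 were higher in T-47D, 4 were lower and 3 missed the threshold. That is 76.9% called. The 76.7% of all genes includes genes that passed in 1 line alone, so the 2 shares are not of like sets. WNT10B, among the 4 lower, had passed in T-47D through treated libraries alone. With the genes that passed in 1 line alone included, 10 of the 27 were higher in T-47D, 14 were lower and 3 missed the threshold.

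Among the other ligands, WNT3, WNT5B and WNT2B passed the level filter in ECC-1 alone. WNT3, a ligand that acts through β-catenin, had 0.371 and 0.233 RPKM in T-47D and 3.67 and 4.29 RPKM in ECC-1. WNT5B was at 0.0547 and 0 RPKM in T-47D and at 0.864 and 0.902 RPKM in ECC-1. WNT2B had 0.0966 and 0.170 RPKM in T-47D and 0.640 and 0.573 RPKM in ECC-1. All 3 were thus higher in both ECC-1 libraries than in either T-47D library. Of the WNT2B exons, 20.9% overlap those of ST7L on the other strand in the GENCODE annotation, and the libraries keep no strand, so reads from the pair cannot be told apart. ST7L itself had 3.41 and 2.98 RPKM in T-47D and 8.94 and 7.94 RPKM in ECC-1.

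WNT11 and WNT4, ligands with roles in kidney and reproductive tract development, passed in T-47D alone. WNT11 had 1.34 and 1.97 RPKM in T-47D and 0.147 and 0.204 RPKM in ECC-1. WNT4 had 1.17 and 1.27 RPKM in T-47D and 0.278 and 0.227 RPKM in ECC-1. Neither gene reached 2 RPKM in either line, far below the leading ligand of each. WNT10B, another ligand that acts through β-catenin, was lower in T-47D, with 0.854 and 0.895 RPKM against 1.59 and 2.20 RPKM in ECC-1 (log2 difference -0.79, adjusted p = 0.000807, limma). WNT9A, the second ligand of T-47D by share, had 4.18 and 4.58 RPKM in T-47D and 3.08 and 3.81 RPKM in ECC-1. Its difference of 0.31 missed the threshold (95% interval -0.09 to 0.71, adjusted p = 0.14, limma).

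**Figure D1:**
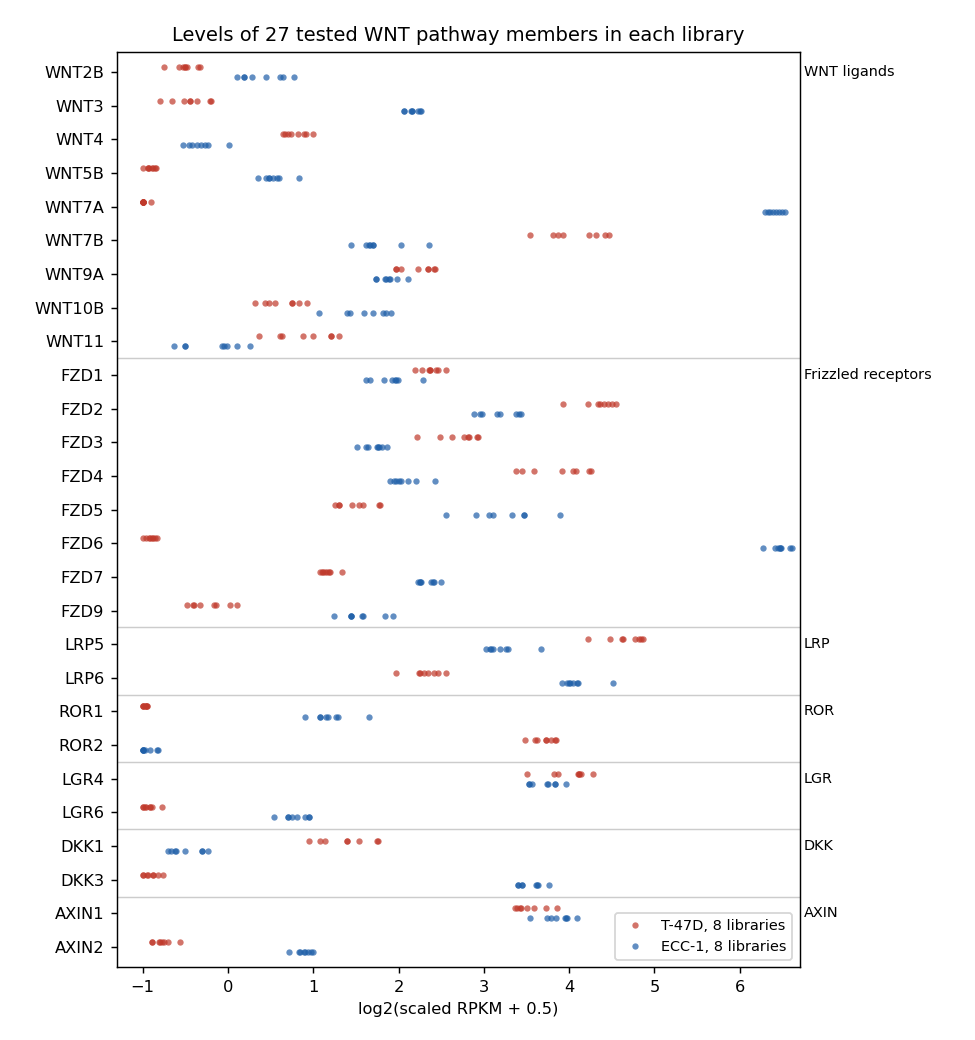
Levels of the 27 tested genes in each of the 16 libraries, as log2(scaled RPKM + 0.5), 1 row per gene in order of role, with T-47D and ECC-1 libraries in different colours. WNT7A and FZD6 reached log2 values over 6 in ECC-1 and lay at the floor in T-47D, and ROR2 showed the opposite arrangement.

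The receptors differed in the same way, with a different frizzled gene leading in each line. FZD2 and FZD4 led in T-47D: FZD2 had 20.8 and 22.2 RPKM in T-47D against 9.92 and 10.3 RPKM in ECC-1 (log2 difference 1.05, adjusted p = 2.48e-05, limma). FZD4, which also serves as the receptor for Norrin, had 16.4 and 18.3 RPKM in T-47D against 3.84 and 4.11 RPKM in ECC-1 (log2 difference 1.99, adjusted p = 2.52e-08, limma). Over the 8 libraries of T-47D, FZD2 held 35.4 to 43.8% and FZD4 23.9 to 32.7% of summed frizzled RPKM. FZD6 led in ECC-1 with 62.6 to 74.5% of the sum over its 8 libraries. Under DMSO it was at 0.0524 and 0.0307 RPKM in T-47D, which is 5 and 2 reads by estimate, and at 95.5 and 89.2 RPKM in ECC-1. No T-47D library came near the FZD6 level of ECC-1.

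FZD4 exons overlap those of PRSS23, a serine protease gene on the opposite strand, over 1255 of 7383 bases. PRSS23 had 3.15 and 3.77 RPKM in T-47D under DMSO and 104 and 117 RPKM in ECC-1. How much of the FZD4 level in ECC-1 came from PRSS23 reads cannot be told apart without strand. In all, 7 of the 27 tested genes share exon bases with another annotated gene, among them DKK1 (11.8% of its exon bases, with PRKG1-AS1) and FZD6 (3.52%, with BAALC-AS1).

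FZD5 and FZD7, receptors used by β-catenin signalling in many epithelia, were lower in T-47D. FZD5 had 1.97 and 2.95 RPKM in T-47D against 5.38 and 7.0 RPKM in ECC-1 (log2 difference -1.18, adjusted p = 2.08e-05, limma). FZD7 had 1.65 and 1.67 RPKM in T-47D against 4.73 and 4.80 RPKM in ECC-1 (log2 difference -1.29, adjusted p = 3.49e-07, limma). FZD3, a receptor of the planar polarity branch, was higher in T-47D, with 6.29 and 6.57 RPKM against 2.86 and 2.35 RPKM in ECC-1 (log2 difference 1.17, adjusted p = 7.1e-05, limma). FZD9 passed in ECC-1 alone, with 0.255 and 0.30 RPKM in T-47D and 1.87 and 2.22 RPKM in ECC-1. FZD1 had 4.09 and 4.67 RPKM in T-47D and 3.30 and 3.39 RPKM in ECC-1, a difference of 0.34 that missed the threshold (adjusted p = 0.106, limma). In the summed frizzled RPKM, ECC-1 exceeded T-47D, with 51.8 and 56.8 in T-47D and 128 and 124 in ECC-1 under DMSO.

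**Figure D2:**
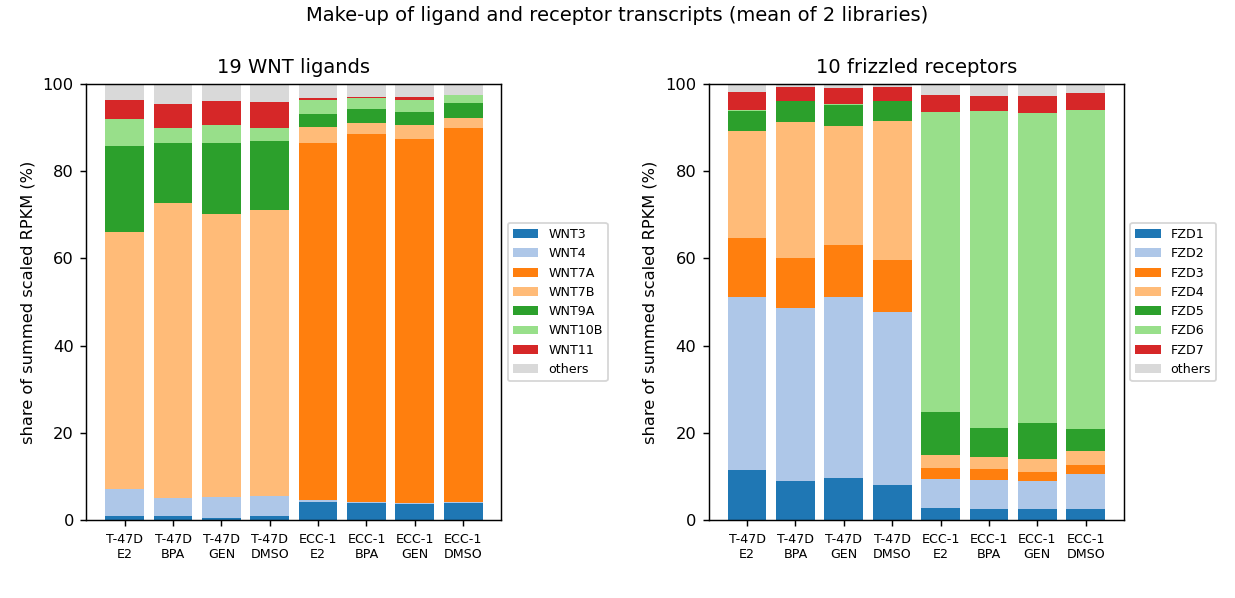
Share of each ligand (left) and each frizzled gene (right) in the summed scaled RPKM of its family, in percent, for the 8 groups as means of 2 libraries. WNT7B, FZD2 and FZD4 filled most of the T-47D bars, and WNT7A and FZD6 filled most of the ECC-1 bars under all 4 treatments.

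The coreceptors were expressed in both lines in opposite proportion. LRP5 had 21.8 and 26.7 RPKM in T-47D against 7.64 and 8.15 RPKM in ECC-1 (log2 difference 1.55, adjusted p = 4.63e-06, limma). LRP6 had 4.22 and 5.37 RPKM in T-47D against 16 and 15.4 RPKM in ECC-1 (log2 difference -1.63, adjusted p = 1.52e-07, limma). LRP5 was thus the higher of the pair in both T-47D libraries and LRP6 in both ECC-1 libraries. The ROR kinases, alternative receptors for ligands such as WNT5A, were split by line as well. ROR2 had 13.3 and 13.9 RPKM in T-47D and 0 and 0.00802 RPKM in ECC-1, where it was listed at 0 in 4 of the 8 libraries. ROR1 had 0.0118 and 0.0173 RPKM in T-47D and 1.94 and 1.76 RPKM in ECC-1. No library held both ROR genes above 1 RPKM.

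Of the R-spondin receptors, LGR4 was the most abundant in both lines, with 17.2 and 16.7 RPKM in T-47D and 13.8 and 11.1 RPKM in ECC-1. Its difference of 0.44 passed the threshold (adjusted p = 0.0205, limma) but was lost in 6 of 12 alternative analyses, among them the one without scaling (0.34, adjusted p = 0.0569), the one without the second ECC-1 DMSO library (0.29, adjusted p = 0.197) and those without the first or the second T-47D DMSO library (adjusted p = 0.0794 and 0.0586). LGR6 was at 0.0119 and 0 RPKM in T-47D and at 1.37 and 1.43 RPKM in ECC-1. Only DKK1 and DKK3 were tested among the 9 secreted antagonists. DKK1, the best known inhibitor of LRP5 and LRP6, had 2.39 and 2.13 RPKM in T-47D and 0.130 and 0.308 RPKM in ECC-1. DKK3, a divergent member of the family, had 0.0462 and 0.0452 RPKM in T-47D and 11.8 and 13.1 RPKM in ECC-1. Each line thus had 1 DKK gene above 1 RPKM, and not the same one.

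The axins differed from each other. AXIN1, the scaffold present in most cells, had 10.2 and 9.85 RPKM in T-47D and 11.1 and 12.8 RPKM in ECC-1, a difference of -0.24 that missed the threshold (adjusted p = 0.124, limma), though it passed without scaling (-0.34, adjusted p = 0.0398) and after quantile normalization (-0.36, adjusted p = 0.033). AXIN2, a widely used transcriptional target of β-catenin, was at 0.0752 and 0.0966 RPKM in T-47D and at 1.49 and 1.3 RPKM in ECC-1. Over all 8 libraries AXIN2 ranged from 0.0398 to 0.180 RPKM in T-47D and from 1.14 to 1.49 RPKM in ECC-1, and the ranges did not overlap.

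The other 20 genes were too low to test: DKK2, DKK4, FZD8, FZD10, LGR5, SFRP1, SFRP2, SFRP4, SFRP5, WIF1, WNT1, WNT2, WNT3A, WNT5A, WNT6, WNT8A, WNT8B, WNT9B, WNT10A and WNT16. Of these, 10 never exceeded 0.1 RPKM in any library and the highest value of any was 0.984 RPKM, for SFRP5 in ECC-1. FZD8 reached 0.918 RPKM in ECC-1 under estradiol. WNT10A was listed at 0 in all 8 T-47D libraries and lay between 0.334 and 0.552 RPKM in ECC-1. LGR5, the stem cell receptor of the family, did not exceed 0.197 RPKM. With these depths, 3 reads of FZD6, a transcript of 3788 bases, correspond to 0.0259 to 0.0479 RPKM, so values of a few hundredths rest on single reads.

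Estradiol changed 1 of the 27 genes in each line, and not the same one. In T-47D it lowered FZD4, and 3.22% of all 13827 genes were called there. In ECC-1 it raised FZD5, and 1.89% of all genes were called there. The 1 gene of 27 is 3.7%, near these shares. The estradiol, bisphenol A and genistein contrasts of a line share its 2 DMSO libraries, so they are not independent of each other.

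FZD5 had 14.3 and 10.6 RPKM in ECC-1 under estradiol, 8.11 and 7.83 RPKM under bisphenol A, 9.58 and 10.6 RPKM under genistein and 5.38 and 7.0 RPKM under DMSO. All 6 treated ECC-1 libraries lay above both DMSO libraries, and the estradiol libraries spanned the widest range. The estradiol change was 0.95 on the log2 scale (SE 0.179, 95% interval 0.57 to 1.33, adjusted p = 0.00946, limma), a 1.93-fold higher level. The genistein change was 0.67 (0.29 to 1.06, adjusted p = 0.13) and the bisphenol A change 0.35 (-0.03 to 0.73, adjusted p = 1), neither past the threshold. These values rest on 773 to 1791 estimated reads per ECC-1 library. With FZD5 higher, its share of summed frizzled RPKM was 11.7 and 8.11% under estradiol and 4.20 and 5.64% under DMSO.

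The FZD5 call in ECC-1 depended on single libraries. It was kept in 9 of 14 alternative analyses, over which the change ranged from 0.74 to 1.16. It was lost without the first estradiol library (0.74, adjusted p = 0.178) and without the first DMSO library (0.78, adjusted p = 0.219). The first estradiol library is the ECC-1 library that stood apart from its line, and it held the higher of the 2 FZD5 values. Whether that library's difference contributed to the FZD5 value was not tested beyond leaving it out.

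In T-47D, FZD5 had 1.96 and 1.88 RPKM under estradiol, 2.92 and 2.50 RPKM under bisphenol A, 2.23 and 2.41 RPKM under genistein and 1.97 and 2.95 RPKM under DMSO. Both estradiol libraries lay just below the lower DMSO library. The change of -0.27 was not past the threshold (adjusted p = 0.515, limma). The difference between the lines in this response, T-47D minus ECC-1, was -1.22 (SE 0.253, 95% interval -1.76 to -0.68, adjusted p = 0.0206, limma), with 1.73% of all genes called in that test. FZD5 was the 1 gene of the 27 called. It was kept in 11 of 16 alternative analyses. The call was lost without the level filter (-1.22, adjusted p = 0.059), without the first ECC-1 estradiol library (-1.01, adjusted p = 0.113), without the first ECC-1 DMSO library (-1.05, adjusted p = 0.138) and without the second T-47D DMSO library (-0.98, adjusted p = 0.128).

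**Figure D3:**
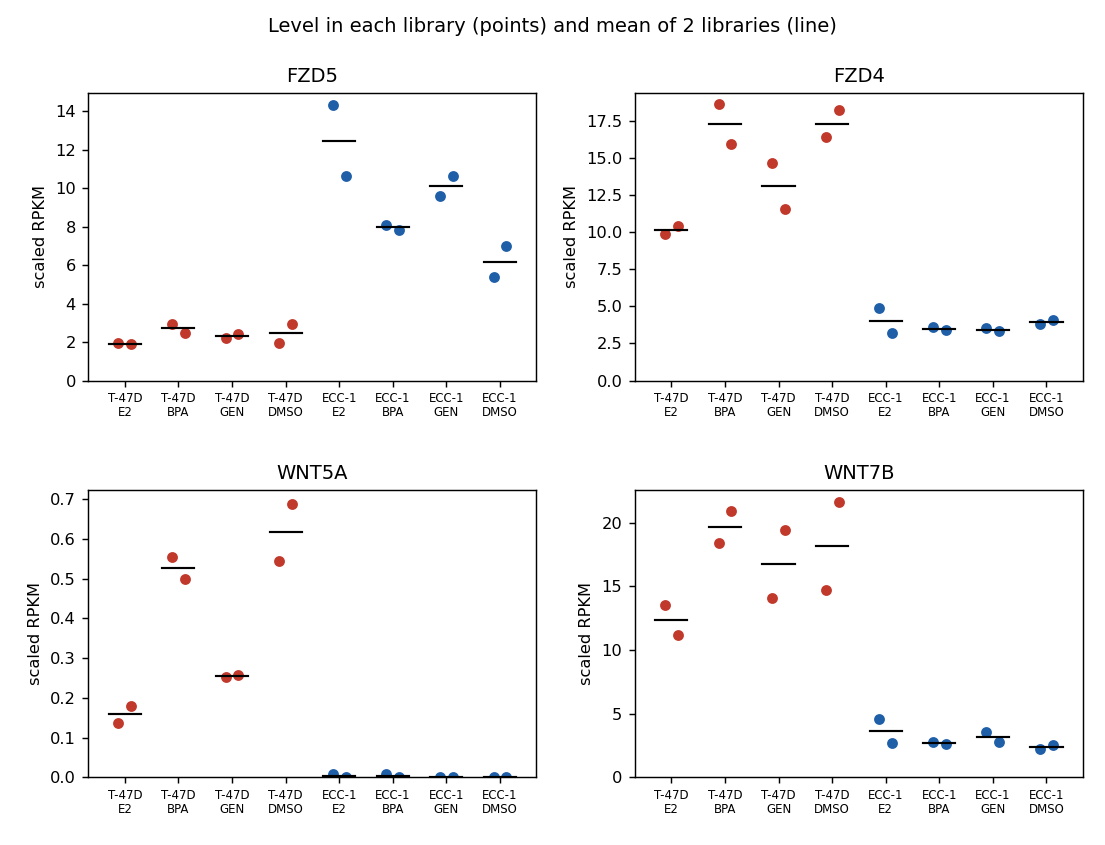
Scaled RPKM of FZD5, FZD4, WNT5A and WNT7B in each library (points) with the mean of 2 libraries (line), by line and treatment. FZD5 was highest in ECC-1 under estradiol, and FZD4 and WNT5A were lowest in T-47D under estradiol.

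FZD4 had 9.89 and 10.4 RPKM in T-47D under estradiol, 18.6 and 16 RPKM under bisphenol A, 14.7 and 11.6 RPKM under genistein and 16.4 and 18.3 RPKM under DMSO. The estradiol libraries lay below all others of the line, and the genistein libraries lay between them and DMSO. The estradiol change was -0.74 (SE 0.164, 95% interval -1.09 to -0.39, adjusted p = 0.0212, limma). The genistein change was -0.40 (-0.75 to -0.05, adjusted p = 0.668) and the bisphenol A change 0.00 (adjusted p = 1). The values rest on 1486 to 3060 estimated reads per T-47D library. The antisense neighbour PRSS23 had 2.51 and 3.27 RPKM in T-47D under estradiol and 3.15 and 3.77 RPKM under DMSO, a difference of -0.23 that was not called (adjusted p = 0.504).

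The FZD4 call was kept in 9 of 14 alternative analyses, with the change between -0.82 and -0.67. It was lost without the first estradiol library (-0.71, adjusted p = 0.0973), without the first DMSO library (-0.82, adjusted p = 0.0691) and without the second DMSO library (-0.67, adjusted p = 0.234). In ECC-1, FZD4 had 4.86 and 3.22 RPKM under estradiol and 3.84 and 4.11 RPKM under DMSO, and the groups overlapped. The difference in response, -0.74, was not past the threshold (adjusted p = 0.145, limma), so a difference between the lines was not shown.

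WNT5A, the main ligand of ROR2, showed a pattern in T-47D that was picked out after its values were seen. It had 0.137 and 0.181 RPKM under estradiol, 0.554 and 0.501 RPKM under bisphenol A, 0.252 and 0.258 RPKM under genistein and 0.545 and 0.689 RPKM under DMSO. By estimate these were 20.2 and 22.4 reads under estradiol, 69.1 and 51.1 under bisphenol A, 30.8 and 27.7 under genistein and 84.9 and 73.3 under DMSO. Estradiol and genistein libraries thus lay below all bisphenol A and DMSO libraries. No ECC-1 library exceeded 0.00925 RPKM.

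WNT5A was below the level filter and was not part of the test described above. When all 19920 genes with a value above 0 were fitted without the filter, the estradiol change in T-47D was -0.76 (adjusted p = 9.83e-05, limma), with 1.92% of all genes called. The genistein change was then -0.56 (adjusted p = 0.00259), with 0.557% called, and genistein differed from bisphenol A by -0.44 (adjusted p = 0.0167), with 0.296% called. The difference between the lines was -0.77 for the estradiol response (adjusted p = 0.00185, 1.06% called) and -0.56 for the genistein response (adjusted p = 0.0206, 0.371% called). At no more than 0.00925 RPKM in ECC-1, WNT5A could not fall there. These 2 differences therefore restate the T-47D changes. The fit without the filter shares its estimate of spread with the 8 ECC-1 libraries, of which 6 were at 0 for WNT5A. A fit on T-47D alone, chosen after seeing the data, gave the same changes with adjusted p = 0.0701 for estradiol, 0.252 for genistein and 0.475 for genistein against bisphenol A, so none of these 3 calls held there. That fit called 0.01% of all genes under estradiol, and 0% under genistein and in genistein against bisphenol A. In T-47D the 6 fibroblast markers, led by COL1A1, summed to 31.8 and 16.9 RPKM under estradiol and 19.8 and 20.6 RPKM under DMSO. The estradiol sums thus lay on both sides of the DMSO sums. Of the 6 markers, 3 were tested and 1 was called. That was LUM, which fell, with 0.558 and 0.644 RPKM under estradiol and 1.13 and 1.11 RPKM under DMSO (-0.56, adjusted p = 0.0186, limma). COL1A2, COL3A1 and PDGFRB did not exceed 0.0701 RPKM in those libraries. The part of the 6 markers in the WNT5A values was not tested.

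**Figure D4:**
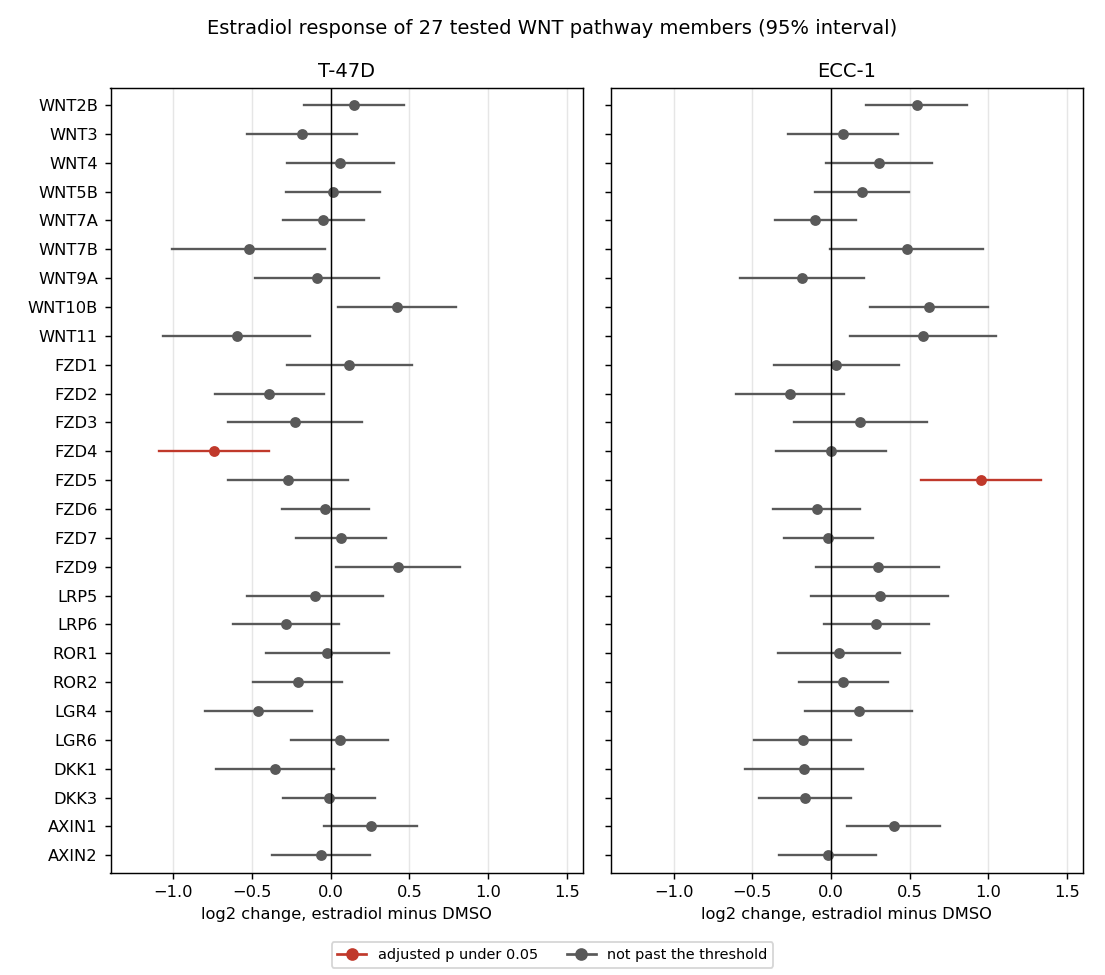
Log2 change under estradiol against DMSO with its 95% interval for the 27 tested genes, T-47D on the left and ECC-1 on the right, red where the adjusted p was under 0.05. FZD4 at -0.74 in T-47D and FZD5 at 0.95 in ECC-1 are the 2 red points; WNT11 and WNT7B lie left of 0 in T-47D and right of 0 in ECC-1.

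No ligand passed the test under estradiol in either line. WNT11 and WNT7B had values of opposite sign in the 2 lines, and WNT10B and WNT2B had values of the same sign. WNT11 had 0.788 and 1.05 RPKM in T-47D under estradiol and 1.34 and 1.97 RPKM under DMSO, a change of -0.60 (adjusted p = 0.194, limma). In ECC-1 it had 0.450 and 0.577 RPKM under estradiol and 0.147 and 0.204 RPKM under DMSO, a change of 0.58 (adjusted p = 0.225). The difference of these responses was -1.18 (95% interval -1.84 to -0.52, adjusted p = 0.0748), resting on as few as 6.1 estimated reads in a library.

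WNT7B, the leading ligand of T-47D, had 13.5 and 11.2 RPKM there under estradiol and 14.8 and 21.6 RPKM under DMSO (-0.52, adjusted p = 0.299, limma). In ECC-1 it had 4.62 and 2.68 RPKM under estradiol and 2.21 and 2.58 RPKM under DMSO (0.48, adjusted p = 0.326). In both lines the estradiol libraries lay outside the DMSO range, in T-47D below and in ECC-1 above. The difference of the responses, -1.0, missed the threshold (adjusted p = 0.154).

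WNT10B and WNT2B had both estradiol libraries above both DMSO libraries in each line, without a call. WNT10B had 1.4 and 1.28 RPKM in T-47D under estradiol and 0.854 and 0.895 RPKM under DMSO (0.42, adjusted p = 0.273, limma). It had 3.03 and 3.26 RPKM in ECC-1 under estradiol and 1.59 and 2.20 RPKM under DMSO (0.62, adjusted p = 0.104, limma). WNT2B had 0.204 and 0.196 RPKM in T-47D under estradiol and 0.0966 and 0.170 RPKM under DMSO (0.15, adjusted p = 0.695). In ECC-1 it had 1.02 and 1.21 RPKM under estradiol and 0.640 and 0.573 RPKM under DMSO (0.54, adjusted p = 0.0915). WNT2B reached 1 RPKM only in treated ECC-1 libraries, 3 of them, and so entered the test through the groups where it was high, which favours its change there. In T-47D, LGR4 had 10.8 and 13.6 RPKM under estradiol and 17.2 and 16.7 RPKM under DMSO (-0.46, adjusted p = 0.16). It passed in the analysis without the second T-47D estradiol library (-0.62, adjusted p = 0.0239).

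Counted without a model, 10 of the 27 genes had both ECC-1 estradiol libraries above both DMSO libraries, 37% of them, against 21.7% of all tested genes. DKK3 alone had both below, 3.7% against 21.8%. The 10 were AXIN1, FZD3, FZD5, FZD9, LRP6, WNT2B, WNT4, WNT7B, WNT10B and WNT11, of which WNT4 and WNT11 had not passed the filter in ECC-1, and WNT2B had passed through treated libraries alone. In T-47D, 6 genes had both estradiol libraries above, against a background of 16.9%, and 8 had both below, against 16.4%. The 6 were AXIN1, FZD7, FZD9, LGR6, WNT2B and WNT10B, of which FZD9, LGR6 and WNT2B had not passed the filter in T-47D. WNT10B had passed there through treated libraries alone. LGR6 rested on 3.1 and 1.0 estimated reads under estradiol and 1.0 and 0 under DMSO. The 8 were DKK1, FZD2, FZD4, FZD5, LGR4, ROR2, WNT7B and WNT11. The median change of the 27 genes was 0.08 in ECC-1 and -0.06 in T-47D, where that of all tested genes was 0.00 and -0.01.

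Genistein changed 0 of the 27 genes in either line by limma, with 0.803% of all genes called in T-47D and 0.969% in ECC-1. At an unadjusted p under 0.05 there was 1 of the 27 genes in T-47D and 6 in ECC-1, against 801 and 1061 of all 13827 genes. In ECC-1 the largest values belonged to WNT11, with 0.700 and 0.473 RPKM under genistein and 0.147 and 0.204 RPKM under DMSO (0.68, adjusted p = 0.278, limma). FZD5, described above, came next. WNT10B had 2.53 and 3.12 RPKM under genistein and 1.59 and 2.20 RPKM under DMSO (0.48, adjusted p = 0.396). FZD2 had 8.40 and 7.23 RPKM under genistein and 9.92 and 10.3 RPKM under DMSO (-0.36, adjusted p = 0.608). For each of these genes the genistein libraries lay outside the DMSO range. In all, 8 of the 27 genes had both genistein libraries above both DMSO libraries in ECC-1, against 21.9% of all tested genes, and 5 had both below, against 29.2%. Among the 8, WNT11 had not passed the filter in ECC-1, and WNT2B and WNT5B had passed through treated libraries alone.

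In T-47D the largest genistein value after that of FZD4 was that of WNT2B, with 0.296 and 0.281 RPKM under genistein and 0.0966 and 0.170 RPKM under DMSO (0.32, adjusted p = 0.86, limma). WNT3 had 0.237 and 0.0771 RPKM under genistein and 0.371 and 0.233 RPKM under DMSO (-0.29, adjusted p = 1). DKK1 had 2.13 and 1.44 RPKM under genistein and 2.39 and 2.13 RPKM under DMSO (-0.29, adjusted p = 1). The genistein and DMSO libraries did not overlap for WNT2B and did for WNT3 and DKK1. In all, 4 of the 27 genes had both genistein libraries above both DMSO libraries in T-47D, against 17.9% of all tested genes, and 4 had both below, against 18.5%. Among these, LGR6 and WNT2B above and ROR1 below had not passed the filter in T-47D, where LGR6 and ROR1 rested on at most 5.1 estimated reads. WNT10B, also above, had passed there through treated libraries alone. The response to genistein differed between the lines for 0 of the 27 genes (0.586% of all genes called). At an unadjusted p under 0.05 it differed for 2 of the 27 genes and for 649 of all 13827 genes. WNT11 had the largest such difference, -0.86 (adjusted p = 0.569), and FZD5 came next with -0.73 (adjusted p = 0.534). For WNT7B it was -0.44 and for DKK1 -0.36, both with an adjusted p of 1.

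Bisphenol A changed 0 of the 27 genes in either line by limma, with 0 genes called in T-47D (0%) and 0.195% of all genes called in ECC-1. At an unadjusted p under 0.05 there were 0 of the 27 in either line, against 116 of all 13827 genes in T-47D and 347 in ECC-1. In ECC-1 the largest values after that of FZD5 were those of FZD2, with 7.38 and 8.66 RPKM under bisphenol A and 9.92 and 10.3 RPKM under DMSO (-0.32, adjusted p = 1, limma), then WNT11 (0.31) and WNT10B (0.30). In T-47D they were those of DKK1, with 2.89 and 2.86 RPKM under bisphenol A and 2.39 and 2.13 RPKM under DMSO (0.29, adjusted p = 1), then FZD1 (0.17), WNT2B (0.17) and WNT7B (0.13). In ECC-1, 4 of the 27 genes had both bisphenol A libraries above both DMSO libraries, against 15.3% of all tested genes, and 6 had both below, against 19.7%. In T-47D, 3 had both above, against 10.5%, and 1, DKK3, had both below, against 10.2%. DKK3 had not passed the filter in T-47D and rested there on 0 and 1.0 estimated reads under bisphenol A and 3.1 and 2.1 under DMSO; WNT2B, among the 3, had not passed there either. In the test of the difference between the lines in these responses, 0 of the 27 genes and 0.0434% of all genes were called. There, 0 of the 27 had an unadjusted p under 0.05, against 195 of all 13827 genes. The largest differences were those of FZD2 (0.36), WNT11 (-0.30), WNT10B (-0.23) and FZD1 (0.22), all with an adjusted p of 1.

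Genistein and bisphenol A were given at the same dose for the same time, so their levels can be compared directly, 1 pair in each line. Genistein is an isoflavone and bisphenol A a pair of phenols joined through a carbon bridge. Of the 27 genes 0 differed by limma in either line, with 0.405% of all genes called in T-47D and 0.0434% in ECC-1. At an unadjusted p under 0.05 there were 2 of the 27 in T-47D and 0 in ECC-1, against 599 and 206 of all 13827 genes. DKK1 had 2.13 and 1.44 RPKM under genistein and 2.89 and 2.86 RPKM under bisphenol A in T-47D (-0.58, 95% interval -0.95 to -0.20, adjusted p = 0.41, limma). FZD4 differed by -0.39 (-0.74 to -0.04, adjusted p = 0.944) between the same groups. For both genes the genistein libraries lay below the bisphenol A libraries. WNT3 (-0.26) and WNT7B (-0.24) followed in T-47D. In ECC-1 the largest values were those of WNT11 (0.37, -0.09 to 0.84), FZD5 (0.32, -0.06 to 0.70), WNT7B (0.19) and WNT10B (0.18), all with an adjusted p of 1. These intervals do not show that the compounds act alike. Estradiol was given at a lower dose, so its values are only set beside the others.

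The partners of these genes in the pathway were read from 6 lists of transcripts. Their counts stand beside the shares of all genes called: 3.22% under estradiol in T-47D, 1.89% under estradiol in ECC-1 and 76.7% between the lines (5469 genes higher in T-47D and 5135 lower). As above, the level filter favoured a difference between the lines in a list gene that passed it in 1 line alone. Of the 5 genes for ligand secretion, all tested, 0 changed under any treatment. Of the 4 that passed the filter in both lines, 1 was higher in T-47D, 1 was lower and 2 missed the threshold. WLS, listed as GPR177, passed in ECC-1 alone and carries WNT proteins to the cell surface; it had 0.404 and 0.169 RPKM in T-47D and 44.0 and 38.7 RPKM in ECC-1. PORCN, the acyltransferase that modifies the ligands, had 6.19 and 6.17 RPKM in T-47D and 3.01 and 3.44 RPKM in ECC-1 (0.84, adjusted p = 5.29e-05, limma). Summed ligand RPKM was 23.7 and 31.8 in T-47D and 96.6 and 108 in ECC-1, so the line with more ligand transcript had more WLS and less PORCN transcript.

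Of the 6 genes of the R-spondin and ubiquitin ligase axis, 2 were tested, and 0 changed under any treatment. RNF43, a ligase that removes frizzled receptors, passed in T-47D alone, with 4.80 and 5.44 RPKM in T-47D and 0.732 and 0.869 RPKM in ECC-1. Its paralog ZNRF3 was lower in T-47D, with 1.04 and 1.38 RPKM against 3.82 and 3.56 RPKM in ECC-1 (-1.3, adjusted p = 1.9e-05, limma).

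Of 13 other coreceptors and antagonists, 6 were tested. TPBG, a WNT modulator that acts on LRP6 in zebrafish, rose in T-47D under estradiol, with 82.3 and 83.8 RPKM against 36.1 and 35.5 RPKM under DMSO (1.2, adjusted p = 0.000116, limma). Genistein raised it too, to 63.5 and 69.8 RPKM (0.88, adjusted p = 0.00433). In ECC-1 it had 11.3 and 9.32 RPKM under estradiol and 12.2 and 11.3 RPKM under DMSO. The difference between the lines in its estradiol response was 1.39 (adjusted p = 0.00144). In ECC-1 the antagonist SOSTDC1 fell under estradiol, with 7.62 and 8.94 RPKM against 12.9 and 12.2 RPKM under DMSO (-0.58, adjusted p = 0.0349). Of the 4 that passed the filter in both lines, 2 were higher in T-47D under DMSO and 2 missed the threshold.

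Of 26 genes of the Dishevelled, destruction complex and planar polarity group, 24 were tested. Estradiol raised 1 in each line, close to the shares of all genes. In T-47D it was CELSR1, a planar polarity cadherin, with 40.4 and 33.8 RPKM under estradiol against 16.5 and 21.6 RPKM under DMSO (0.95, adjusted p = 0.0143, limma); genistein raised it by 0.98 (adjusted p = 0.0262). In ECC-1 it was AMER1, listed as FAM123B, an APC-binding member of the destruction complex, with 4.01 and 2.92 RPKM under estradiol against 1.81 and 2.19 RPKM under DMSO (0.66, adjusted p = 0.0334). Between the lines 79.2% were called, near the share of all genes; of the 18 that passed the filter in both lines, 11 were higher in T-47D, 2 were lower and 5 missed the threshold. Of the 19 nuclear factors, all tested, 0 changed under any treatment. For estradiol, 6 of the 19 had an unadjusted p under 0.05 in each line. Of all 13827 genes, 2051 had one in T-47D and 2125 in ECC-1. Of the 17 nuclear factors that passed the filter in both lines, 13 were higher in T-47D, 3 were lower and 1 missed the threshold. The repressor TCF7L1 had the largest difference, with 32.7 and 36.5 RPKM in T-47D and 3.45 and 3.66 RPKM in ECC-1.

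Of 15 transcripts widely used as readouts of β-catenin, 10 were tested. Estradiol raised MYC and CD44 in T-47D and MYC in ECC-1, against 3.22% and 1.89% of all genes called. The other tested readouts, 8 in T-47D and 9 in ECC-1, were not called, and nor was AXIN2 in either line. Whether β-catenin took part in the rise of MYC and CD44 was not tested. Genistein raised MYC and CD44 in T-47D and MYC in ECC-1 as well, against 0.803% and 0.969%. MYC had 14.7 and 14.1 RPKM in T-47D under estradiol against 3.07 and 2.95 RPKM under DMSO (2.09, adjusted p = 2.99e-06, limma), and 35.4 and 33.1 RPKM in ECC-1 against 19 and 22.4 RPKM (0.71, adjusted p = 0.0289). CD44 had 10.8 and 16.5 RPKM in T-47D under estradiol against 7.63 and 7.21 RPKM under DMSO (0.81, adjusted p = 0.0245). Under genistein MYC had 11.5 and 11.5 RPKM in T-47D (1.77, adjusted p = 7.35e-05) and 37.2 and 34.5 RPKM in ECC-1 (0.78, adjusted p = 0.0229). CD44 had 12.4 and 16.1 RPKM under genistein in T-47D (0.89, adjusted p = 0.0298). MYC was also higher under genistein than under bisphenol A in T-47D (1.16, adjusted p = 0.00328), where 0.405% of all genes were called. Bisphenol A raised 0 of the 10 in either line. Between the lines under DMSO all 10 were called, 4 higher in T-47D and 6 lower, beside 76.7% of all genes called in either direction. This count includes genes that passed the filter in 1 line alone, which favours a difference. Of the 5 that passed in both lines, 5 were lower in T-47D and 0 higher. The 4 higher in T-47D had all passed in 1 line alone, so leaving such genes out removes every readout that was higher there. LEF1, TCF7, NKD1, RNF43 and ZNRF3 also stand in other lists above. For the counts of genes that passed in both lines, here and in the other lists, the share among all such genes was not computed.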

How the data were processed

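Expression was measured by RNA sequencing of 16 libraries, 2 for each of 8 groups. Libraries were made from mRNA with a transposase and keep no strand, per the labels' protocols. The authors deposited an RPKM value for each of 32062 RefSeq transcripts per library; reads were aligned with Bowtie to hg19, per the submitters' processing notes, and the version, the counter and the treatment of reads with several matches are not given in the sources used here. Shared or repeated sequence could therefore move reads between related genes.

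From these values, the row with the highest mean RPKM was kept per symbol, which concerned 9 of the 47 genes. Each library was divided by its median ratio to the gene means over 7547 genes with at least 5 RPKM throughout. limma 3.58.1 in R 4.3.3 fitted 8 group means to log2(scaled RPKM + 0.5), with trended variances (8 residual and 6.9 prior degrees of freedom). Tests were two-sided and covered the 13827 genes that reached 1 RPKM in 2 or more libraries. The procedure was tested on simulated data with the same spread per gene in every group. That test does not cover the wider estradiol pairs. No 2 libraries held identical values.

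The values are RPKM, not counts. Sequencing depth was therefore inferred from the spacing of low RPKM values, with GENCODE lengths. Of values worth fewer than 10 reads, 62.0 to 64.0% came within 0.1 read of an integer, and chance gives 20%. Read numbers are therefore estimates and were not used in tests. Exon overlaps were read from GENCODE on GRCh38, and no coordinates were converted between builds. Promoter windows came from RefSeq, matched by symbol.

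Genes named for a treatment are those past the threshold and the 4 with the largest absolute change in each comparison. The genes and lists were chosen with earlier results of these data known. Alternatives were other pseudocounts (0.1 and 1), no filter, no scaling, quantile normalization, the mean over a symbol's rows, a replicate block, fits on 1 line and fits without single libraries.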

Additional observations from a re-analysis of the deposited data

Results flagged for a closer look

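The response of FZD5 to estradiol differed between the lines: the log2 change in T-47D minus that in ECC-1 was -1.22, past the threshold in a direct test of the difference (adjusted p = 0.0206, limma). FZD5 had 1.96 and 1.88 RPKM under estradiol and 1.97 and 2.95 RPKM under DMSO in T-47D. In ECC-1 it had 14.3 and 10.6 RPKM under estradiol and 5.38 and 7.0 RPKM under DMSO. The call was kept in 11 of 16 alternative analyses, over which the difference ranged from -1.46 to -0.98. It was lost in some of those that left out a single library. With 2 libraries per group, no other test for single outlying libraries was made.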

How the results depend on the processing

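Of 640 alternative values for the 44 treatment results named gene by gene, 618 kept their direction and their side of the threshold, 15 lost a call, 6 gained one and 1 reversed. For the 27 genes compared between lines under DMSO, 314 of 324 values kept both, 6 lost a call and 4 gained one. The number of the 27 genes called under estradiol in ECC-1 was 1 in the main analysis and 0 without both first estradiol libraries, in a fit on that line alone, and in a fit on that line alone with no filter, which was added after seeing the data. Without single libraries it ranged from 0 to 2. Under estradiol in T-47D the number was 1; it was 2 without the filter (WNT5A added), 2 without both first estradiol libraries (FZD2 added), 0 in either fit on that line alone, and 0 to 4 without single libraries. The number that differed between lines in the estradiol response was 1; it was 2 with the replicate block (WNT11 added), 0 without both first estradiol libraries, and 0 to 5 without single libraries; without the filter it stayed 1, with FZD5 lost (adjusted p = 0.059) and WNT5A gained. Without both first estradiol libraries, genistein called 1 gene in ECC-1, FZD5 (adjusted p = 0.0373), against 0 in the main analysis. Without the filter, genistein in T-47D, genistein against bisphenol A in T-47D and the genistein response between lines each called 1, WNT5A, against 0. WNT5A was near 0 in ECC-1, so its calls between lines restate the T-47D changes. The bisphenol A value of WNT7B in T-47D, 0.13, ranged from -0.14 to 0.40 without single libraries. The cause of these changes was not tested. Replicate numbers are shared across groups, and the deviations of same-numbered libraries of a line correlated at -0.224 to 0.408, over 0.1 in 7 of 12 pairs of groups and not in the others, so the numbers were not taken to pair the samples; with the replicate block, 1 gene was called under estradiol in each line, 0 under genistein or bisphenol A and 23 between lines. With 2 libraries per group and 17.41 to 29.39 M estimated reads, small changes and genes under 1 RPKM were not resolved.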
